A study of Mus musculus with 12 samples.

Results

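The auxiliary subunits of voltage-gated calcium channels were followed in the cerebellum of a mouse model of spinocerebellar ataxia type 6, whose disease gene, Cacna1a, encodes the pore of P/Q-type calcium channels. The members were the probe sets that the array annotation assigns to 1 of 10 genes: Cacnb1, Cacnb2, Cacnb3 and Cacnb4, Cacna2d1, Cacna2d2 and Cacna2d3, and Cacng2, Cacng4 and Cacng7. Of these genes, 9 had probe sets, 25 in all of the 45101 on the array. All 9 genes, with 19 of the 25 probe sets, lay above the filter on dim probe sets, among 12672 genes in the whole series. Cacnb3 had no probe set of its own in the annotation used and was not analysed here.

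Total cerebellar RNA was hybridised to 12 arrays in 4 groups of 3: MPI 118Q/118Q knockin mice, wild type littermates of that line, MPI 11Q/11Q knockin mice, and wild type littermates of the 11Q line. Both knockin genotypes belong to the Sca6 knockin model and are homozygous in the labels, and 118Q and 11Q stand for the polyglutamine length. All mice had a C57BL/6 background and were 6 weeks old. No treatment, sex, pooling or number of founder clones is given in the sources used here, and the labels do not say which mice shared a litter. Values are the authors' log2 levels per probe set, so a difference of 1 is a doubling, and each gene is represented by its brightest probe set unless another is named. Levels of different probe sets were not set against each other.

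A calcium channel of the high-voltage-activated kind is built on a pore-forming alpha1 subunit, to which auxiliary subunits attach. Beta subunits bind the channel inside the cell, help it to the membrane and set its gating, whereas alpha2delta subunits lie on the outer face and raise the number of channels at the surface and at release sites. Several gamma subunits, among them Cacng2, Cacng4 and Cacng7, act as transmembrane AMPA receptor regulatory proteins, which carry glutamate receptors to synapses and shape their currents. In mice, loss of Cacnb4 (lethargic), of Cacna2d2 (ducky) or of Cacng2 (stargazer) causes ataxia and absence-like seizures.

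The arrays correlated with each other at 0.980 to 0.995 over all probe sets, and their medians lay between 2.21 and 2.38 log2 units. The 118Q knockin arrays stood apart in an RNA measure: their 18S ribosomal RNA signals were 9.23, 8.63 and 8.56 log2 units, against 9.78, 9.66 and 10.32 in their littermates, with no overlap (exact two-sided permutation p = 0.1, the smallest that 3 against 3 arrays allow). Their deviations from each gene's mean also ran against gene span, the length of the annotated gene on the genome, with a Spearman correlation of -0.294 ± 0.0444 over genes, against 0.0363 ± 0.109 in littermates (SD, n = 3 each). The 3 prime minus 5 prime signal of the Gapdh control did not overlap either, at -0.145 in knockins and -0.0818 in littermates (exact permutation p = 0.1). That of the beta-actin control overlapped, at 1.09 and 1.21 (exact permutation p = 0.2). Cell type markers listed for the cerebellum were present: all 16 Purkinje cell and all 14 granule cell markers with a probe set lay above the filter. In the 118Q line, 15 of the 16 Purkinje cell markers were below 0 in the knockin minus littermate difference, against 40% of all genes. Their median was -0.47, beside 0.06 over all genes, and 2 were called lower (Slc1a6 and Atp2a2, both at a limma adjusted p of 0.0465). These calls ended under several alternatives, with adjusted p-values of 0.786 and 0.797 with the 18S covariate and of 0.192 for both with only the groups compared (limma). The summed level of those markers on a linear scale was 9176 to 12076 in 118Q knockin arrays, against 13280 to 14230 in 118Q wild type arrays. In whole tissue, fewer cells of a type and less RNA per cell cannot be told apart. Cacna1a itself averaged 5.61 ± 0.09 in 118Q knockin and 5.94 ± 0.35 in 118Q wild type cerebellum (SD, n = 3 each), a difference of -0.34 ± 0.15 (limma, SE, adjusted p = 0.264), and its probe set does not check the repeat length.

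Among the auxiliary subunits, the difference between 118Q knockin and 118Q wild type cerebellum was lowest for Cacna2d2 and highest for Cacng7, whose sign turned with the 18S covariate. None of the 9 genes was called at a limma adjusted p below 0.05, where 0.189% of all genes were called. At an unadjusted p below 0.05, Cacnb2, Cacnb4 and Cacna2d2 were lower and no member was higher, against 6.7% of all genes lower and 18.7% in either direction. Differences were below 0 for 6 members and above 0 for 3, while 40% of all genes were below 0. Their median was -0.10, beside 0.06 over all genes. With the trend with gene span removed, the members' median turned to 0.0035, beside 0.0104 over all genes. The arrays did not overlap for Cacna2d2 and Cacnb2, both lower in knockins, against 7.24% of genes lower in this way and 22.4% in either direction. Over the 4 groups, 118Q knockins had the lowest mean for Cacnb2, Cacnb4, Cacna2d1, Cacna2d2, Cacna2d3 and Cacng2 and the highest for Cacnb1 and Cacng4. Among the members, only for Cacna2d2 were all 118Q knockin arrays apart from those of the other 3 groups. The shares of all genes with such an order or separation were not counted, so neither is read as particular to these genes.

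**Figure D1:**
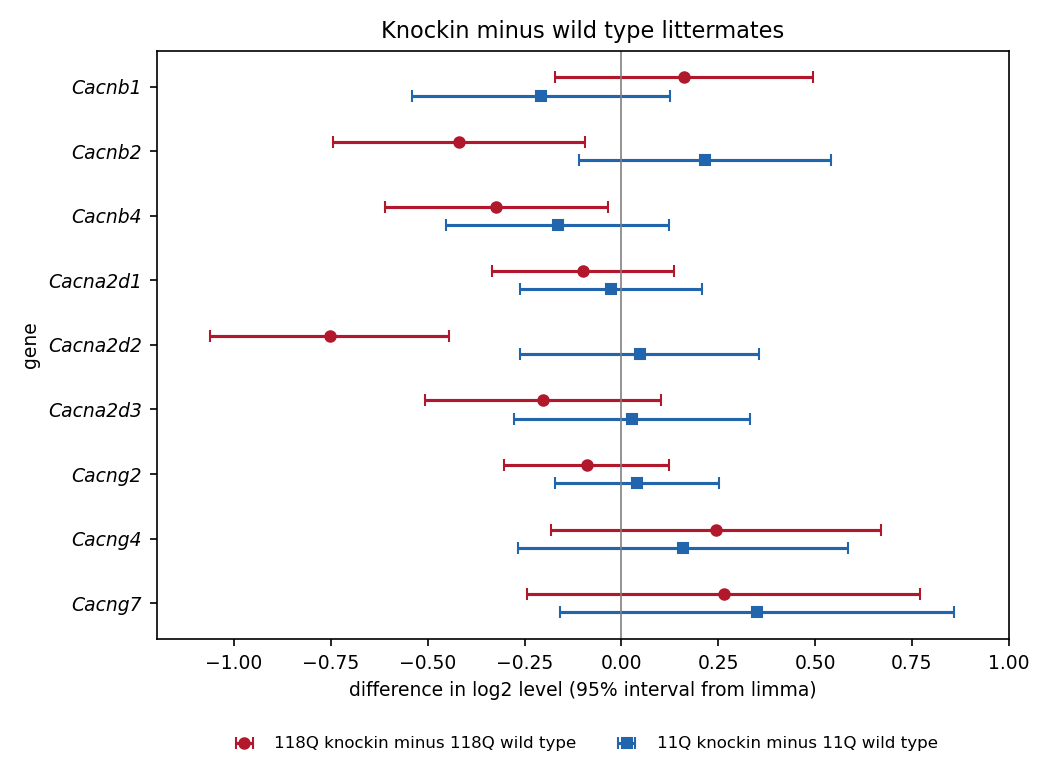
Difference in log2 level between knockin and wild type littermates for the 9 auxiliary subunit genes (rows), in the 118Q line (red circles) and the 11Q line (blue squares), with bars for the 95% interval from limma. In the 118Q line the intervals of Cacna2d2, Cacnb2 and Cacnb4 lie below 0 before any adjustment, and in the 11Q line every interval crosses 0.

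The beta subunits differed in direction. Cacnb2 (chr2:14603861-14988811, GRCm38.p6), a beta subunit best known from heart and also present in brain, measured 4.04, 3.57 and 3.73 in 118Q knockins, against 4.18, 4.28 and 4.13 in 118Q wild types. Every knockin array was below every littermate array, by -0.42 ± 0.15 on average (limma, SE, adjusted p = 0.171). Its 11Q levels of 4.56, 4.18 and 3.995 in knockins overlapped those of 3.95, 4.10 and 4.04 in wild types. A second, dimmer probe set of Cacnb2 gave a difference of -0.41 in the 118Q line, with overlapping arrays.

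Cacnb4 (chr2:52428320-52676609), the beta subunit found with P/Q-type channels in the cerebellum, measured 8.62, 8.37 and 8.53 in 118Q knockins, against 8.56, 8.89 and 9.04 in 118Q wild types. The groups overlapped through 1 wild type array, and the difference of -0.32 ± 0.13 did not pass (limma, SE, adjusted p = 0.217). It was -0.0599 with the 18S covariate, -0.16 with the gene's probe sets averaged and -0.20 with the gene span trend removed. Its other probe sets went both ways, at -0.26 and 0.12. Arrays of the 11Q line gave Cacnb4 levels of 8.73, 8.94 and 8.78 in knockins and 9.11, 8.85 and 8.99 in wild types, again overlapping, with a difference of -0.16 ± 0.13. Cacnb1 (chr11:98001508-98023034), the beta subunit of skeletal muscle channels and also a neuronal one, measured 3.62, 3.81 and 3.50 in 118Q knockins, against 3.42, 3.58 and 3.44 in 118Q wild types. The groups overlapped, the difference was 0.16 ± 0.15 (limma, SE, adjusted p = 0.610), and another Cacnb1 probe set above the filter had the opposite sign at -0.17. For Cacnb1 the 11Q arrays gave 2.79, 3.24 and 3.41 in knockins and 3.34, 3.52 and 3.20 in wild types, and the first of these knockin arrays was the lowest of all 12.

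**Figure D2:**
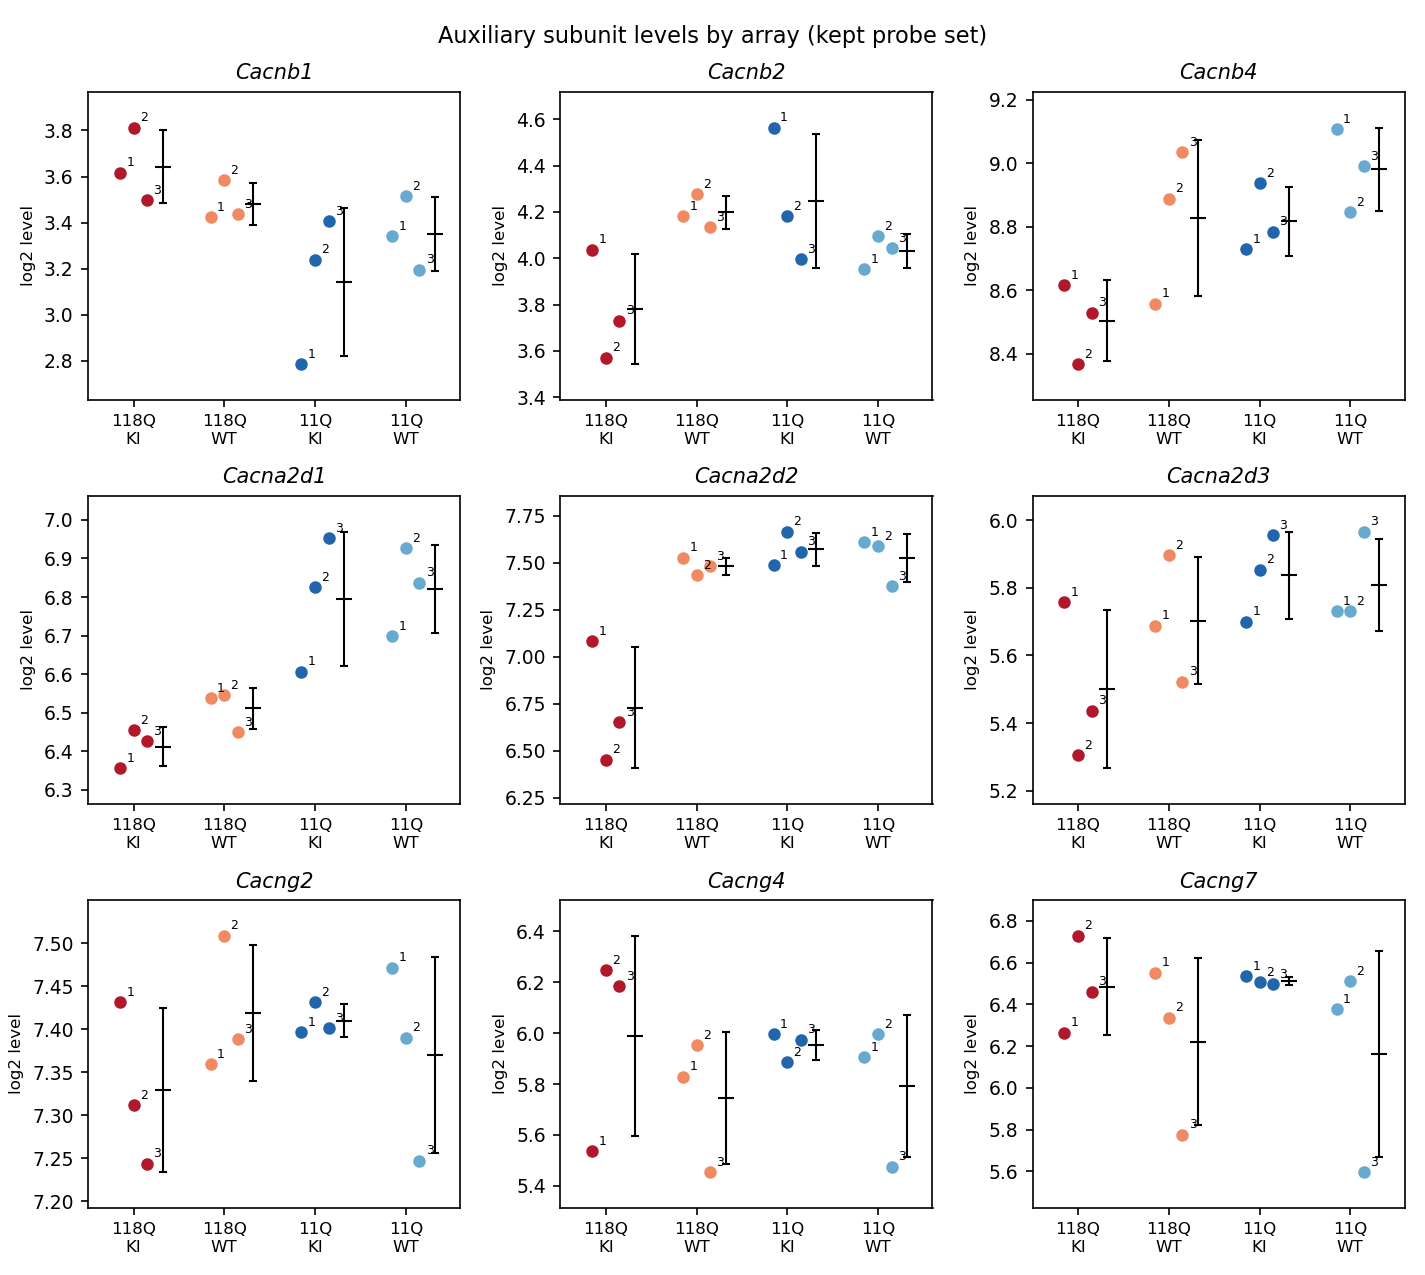
Log2 level of the brightest probe set of each of the 9 genes in every array (points) with the group mean (bar), in the order 118Q knockin, 118Q wild type, 11Q knockin, 11Q wild type; each panel has its own scale. Cacna2d2 has 3 knockin points of the 118Q line below all other 9 arrays, and Cacng7 has 1 low array in each wild type group.

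Cacna2d2 (chr9:107399733-107529346), the alpha2delta subunit that Purkinje cells express strongly, measured 7.08, 6.45 and 6.65 in 118Q knockins, against 7.53, 7.44 and 7.48 in 118Q wild types. The 3 knockin arrays lay below every other array of the series, a trait that was not counted over all genes. The difference of -0.75 ± 0.14, with a 95% interval of -1.06 to -0.44, was a 1.69-fold lower level and just missed the threshold (limma, SE, adjusted p = 0.0572). In the 11Q line Cacna2d2 measured 7.49, 7.67 and 7.56 in knockins, against 7.61, 7.59 and 7.38 in wild types, a difference of 0.05 ± 0.14 with a 95% interval of -0.26 to 0.36. The mean of 6.73 in 118Q knockins was below those of 7.48 in 118Q wild types, 7.57 in 11Q knockins and 7.52 in 11Q wild types, and the arrays of those 3 groups overlapped. The 2 remaining probe sets of Cacna2d2 were under the filter, with differences of -0.12 and 0.02.

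The Cacna2d2 difference depended on how it was fitted. Its limma adjusted p passed in only 5 of 18 alternatives, with the difference below 0 in all 18. Passing values included 0.0294 with an intensity trend in the variance and 0.0398 with a stricter filter. Others were 0.0468 after quantile normalization and 0.0215 with every probe set tested on its own. Without 118Q knockin replicate 1, the highest of that group, the difference was -0.93 (limma, adjusted p = 0.0033). With the 18S signal as a covariate it was -0.37 (limma, adjusted p = 0.808). That signal did not overlap between the 118Q groups, so the fit cannot tell its part from that of the genotype. With the trend with gene span removed the Cacna2d2 difference was -0.68 (limma, adjusted p = 0.0799). In the same comparison the Purkinje cell markers given above were also below 0, except for Pcp2 at 0.14, with Pvalb at -0.01. Of the 16, 9 were lower at an unadjusted p below 0.05 (limma), against 6.7% of all genes. Markers of some other cells differed too, beside 40% of all genes below 0 and a median of 0.06. Endothelial and mural markers were below 0 in 11 of 11, with a median of -0.62 and 1 called, and summed to 367 to 448 on a linear scale in 118Q knockins, against 475 to 588 in 118Q wild types. Interneuron markers were below 0 in 9 of 10, with a median of -0.32 and none called, and summed to 346 to 584 in 118Q knockins, against 589 to 599 in 118Q wild types. Microglia markers went the other way, above 0 in 11 of 11 with a median of 0.66 and 1 called, and summed to 303 to 395 in 118Q knockins, against 237 to 271 in 118Q wild types. Granule cell markers were below 0 in 8 of 14, with a median of -0.04. Bergmann glia and astrocyte markers were below 0 in 4 of 11 (median 0.03), and oligodendrocyte markers in 4 of 11 (0.13). Choroid plexus markers were below 0 in 5 of 7 (median -0.18), and meningeal fibroblast markers in 8 of 8 (-0.24). The part of these cell types in the Cacna2d2 result was not tested.

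**Figure D3:**
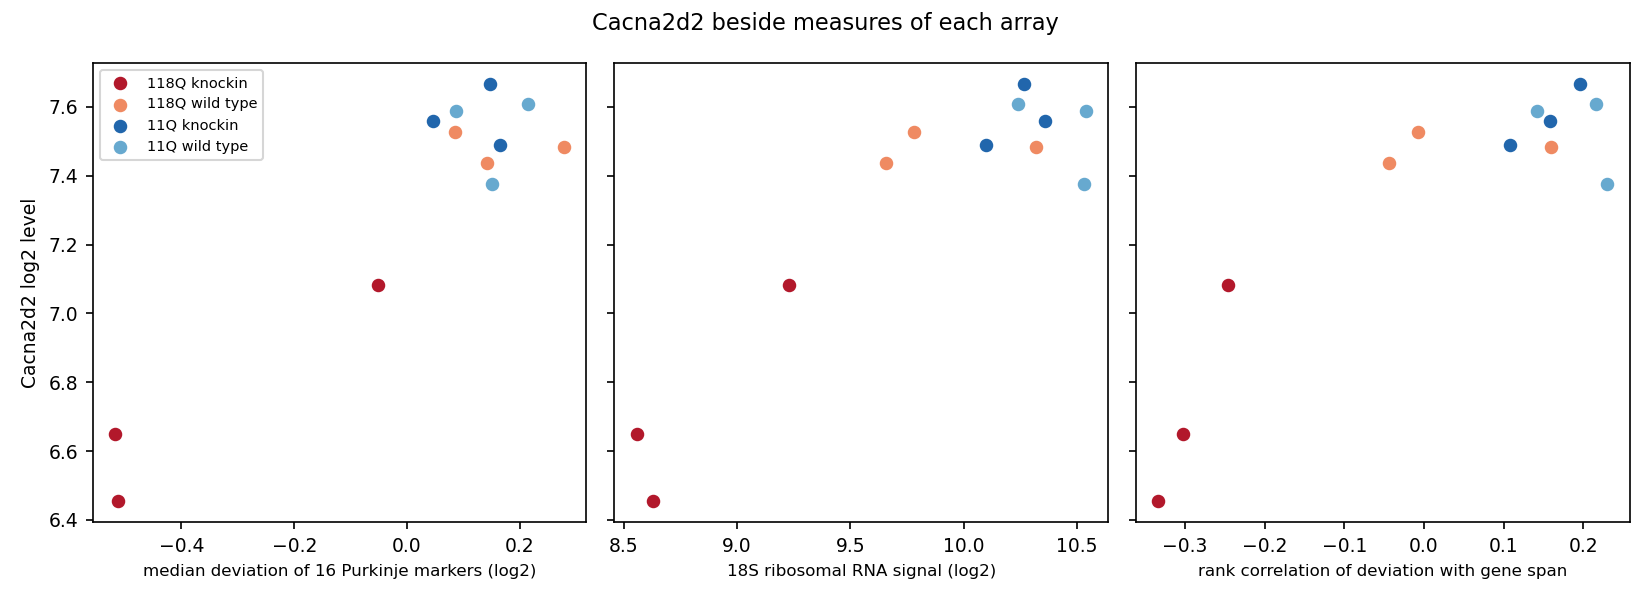
Log2 level of Cacna2d2 in each of the 12 arrays, coloured by group, against a measure of the array in each panel. The left panel has the median deviation of the Purkinje cell markers and the middle panel the 18S ribosomal RNA signal. The right panel has the Spearman correlation of deviations with gene span. The 118Q knockin arrays are lowest on the vertical axis and lie at the low end of every horizontal axis.

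That plot of Cacna2d2 against array measures shows where the knockin arrays sit. The median deviation of the 16 Purkinje cell markers was -0.52 to -0.05 in 118Q knockins, against 0.08 to 0.28 in 118Q wild types. It was 0.05 to 0.16 in 11Q knockins and 0.09 to 0.21 in 11Q wild types. Over the 12 arrays, the genes whose level was most like that of Cacna2d2 were Gsk3b, a protein kinase (Pearson r = 0.978), Atp2a2, which pumps calcium into the endoplasmic reticulum (0.976), and Dner, a Notch-related membrane protein of Purkinje cells (0.973). Atp2a2 and Dner are also on the Purkinje cell marker list, and these arrays share their groups and RNA measures, so the correlations only describe the samples.

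The upstream sequences of the genes with the lowest and the highest 118Q difference are shown to give the genomic context of their start sites. Both are the 250 bases before the start of a RefSeq transcript, on the plus strand of GRCm38.p6: chr9:107399630-107399879 for Cacna2d2 and chr7:3332575-3332824 for Cacng7. Because another annotated start lies upstream, the Cacng7 window and the later part of the Cacna2d2 window fall inside the span annotated for the gene. Capitals mark the motifs found on either strand.
Cacna2d2: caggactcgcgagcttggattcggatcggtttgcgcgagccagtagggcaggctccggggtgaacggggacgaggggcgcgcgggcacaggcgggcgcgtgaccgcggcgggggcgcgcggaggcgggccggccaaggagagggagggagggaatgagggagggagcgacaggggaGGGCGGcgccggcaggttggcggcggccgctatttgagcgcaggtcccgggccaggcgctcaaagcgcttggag
Cacng7: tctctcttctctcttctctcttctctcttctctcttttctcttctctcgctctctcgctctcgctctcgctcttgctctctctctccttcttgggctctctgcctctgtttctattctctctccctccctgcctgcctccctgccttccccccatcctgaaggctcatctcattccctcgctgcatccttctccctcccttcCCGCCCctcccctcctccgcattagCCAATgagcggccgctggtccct

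GC bases made up 74.4% of the Cacna2d2 window and 58% of the Cacng7 window, beside a median of 52.4% over 32851 promoter windows of the same length. Each motif was searched on both strands. The letters GGGCGG, a GC box, occurred in 32.7% of all windows, once in that of Cacna2d2 and, on the minus strand, once in that of Cacng7. The letters of the CCAAT box occurred in 33.8% of windows and once in that of Cacng7. Neither window held CACGTG, an E box found in 6.02% of windows. TATAAA, the letters found in 12.4% of windows that often stand near a start site, was in neither of them. AGGTCA, part of nuclear receptor elements and found in 14% of windows, was in neither, and the same held for TGACG, part of cyclic AMP response elements and found in 17.8%. A match is a description of the letters only, and a missing match says only that the letters are not in this window.

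The other alpha2delta subunits showed smaller differences in the 118Q line. Cacna2d1 (chr5:15934264-16374511), a receptor of gabapentin, measured 6.36, 6.45 and 6.43 in 118Q knockins, against 6.54, 6.54 and 6.45 in 118Q wild types. The groups overlapped narrowly, near 6.45, and the difference was -0.10 ± 0.11 (limma, SE, adjusted p = 0.662). Dimmer Cacna2d1 probe sets above the filter gave -0.46, without overlap, and -0.13, with overlap. Neither passed with every probe set tested on its own (limma, adjusted p = 0.243 and 0.828). Levels of Cacna2d1 in the 11Q line were 6.61, 6.83 and 6.95 in knockins, against 6.70, 6.93 and 6.84 in wild types, overlapping with a difference of -0.03 ± 0.11. Both groups of the 118Q line thus lay below both groups of the 11Q line for the brightest Cacna2d1 probe set. The difference of 118Q wild types minus 11Q wild types was -0.31 ± 0.11, with no overlap (limma, unadjusted p = 0.0137, adjusted p = 1.00).

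Cacna2d3 (chr14:28904943-29722775), an alpha2delta subunit of brain, measured 5.76, 5.30 and 5.44 in 118Q knockins, against 5.69, 5.90 and 5.52 in 118Q wild types. The groups overlapped, with a difference of -0.20 ± 0.14 (limma, SE, adjusted p = 0.465). Levels in the 11Q line were 5.70, 5.85 and 5.96 in knockins and 5.73, 5.73 and 5.97 in wild types. These groups also overlapped, and their difference was 0.03 ± 0.14. The span of Cacna2d3, 817833 bases, was above that of 99.5% of the genes tested, and those of Cacna2d1, Cacnb2 and Cacnb4 were at the percentiles 98.3, 97.8 and 95.8. With the trend with gene span removed, the 118Q differences of Cacna2d1 and Cacna2d3 turned to 0.06 and 0.0035 and that of Cacnb2 was -0.27.

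The gamma subunits had differences on both sides of 0 in the 118Q line. Cacng2 (chr15:77991919-78120220), stargazin, measured 7.43, 7.31 and 7.24 in 118Q knockins, against 7.36, 7.51 and 7.39 in 118Q wild types. These overlapped, and the 95% interval of the difference of -0.09 ± 0.10 was -0.30 to 0.12 (limma, SE, adjusted p = 0.659). Its 11Q levels were 7.40, 7.43 and 7.40 in knockins, against 7.47, 7.39 and 7.25 in wild types. Its 2 other probe sets gave 0.02 and 0.14 in the 118Q line, so the 3 probe sets did not share a sign.

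Cacng4 (chr11:107732357-107794706), an AMPA receptor regulatory protein, measured 5.54, 6.25 and 6.19 in 118Q knockins, against 5.83, 5.95 and 5.45 in 118Q wild types. The groups overlapped, with a difference of 0.24 ± 0.20 (limma, SE, adjusted p = 0.538). Its 11Q arrays gave 6.00, 5.88 and 5.98 in knockins, against 5.91, 6.00 and 5.48 in wild types. Cacng7 (chr7:3332027-3368221), another protein of that class, measured 6.26, 6.73 and 6.46 in 118Q knockins, against 6.55, 6.34 and 5.78 in 118Q wild types. The difference was 0.26 ± 0.23 with overlapping arrays (limma, SE, adjusted p = 0.579). The 11Q line had Cacng7 at 6.53, 6.50 and 6.49 in knockins, against 6.38, 6.51 and 5.60 in wild types, a difference of 0.35 ± 0.23. With the 18S signal as a covariate the 118Q differences turned to -0.68 for Cacng4 and -0.56 for Cacng7 (limma, adjusted p = 0.664 and 0.810).

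Replicate 3 of both wild type groups was low for Cacng4 and Cacng7. For Cacng7 these arrays, at 5.78 in the 118Q line and 5.60 in the 11Q line, were below all other 10 arrays, which lay between 6.26 and 6.73, and its second probe set showed the same at 3.06 and 2.99 against 3.93 to 4.39. For Cacng4 they read 5.45 and 5.48, against 5.54 to 6.25 in the other arrays, but its second probe set, at 3.98 and 3.46 against 3.94 to 4.91, overlapped the other arrays. Of all genes, 9.82% were lower in both of these arrays than in the other 10, beside 2 of the 9 members. Without these arrays, an alternative chosen after seeing the data, the Cacng7 differences were 0.04 in the 118Q line and 0.07 in the 11Q line, against 0.26 and 0.35 with them.

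**Figure D4:**
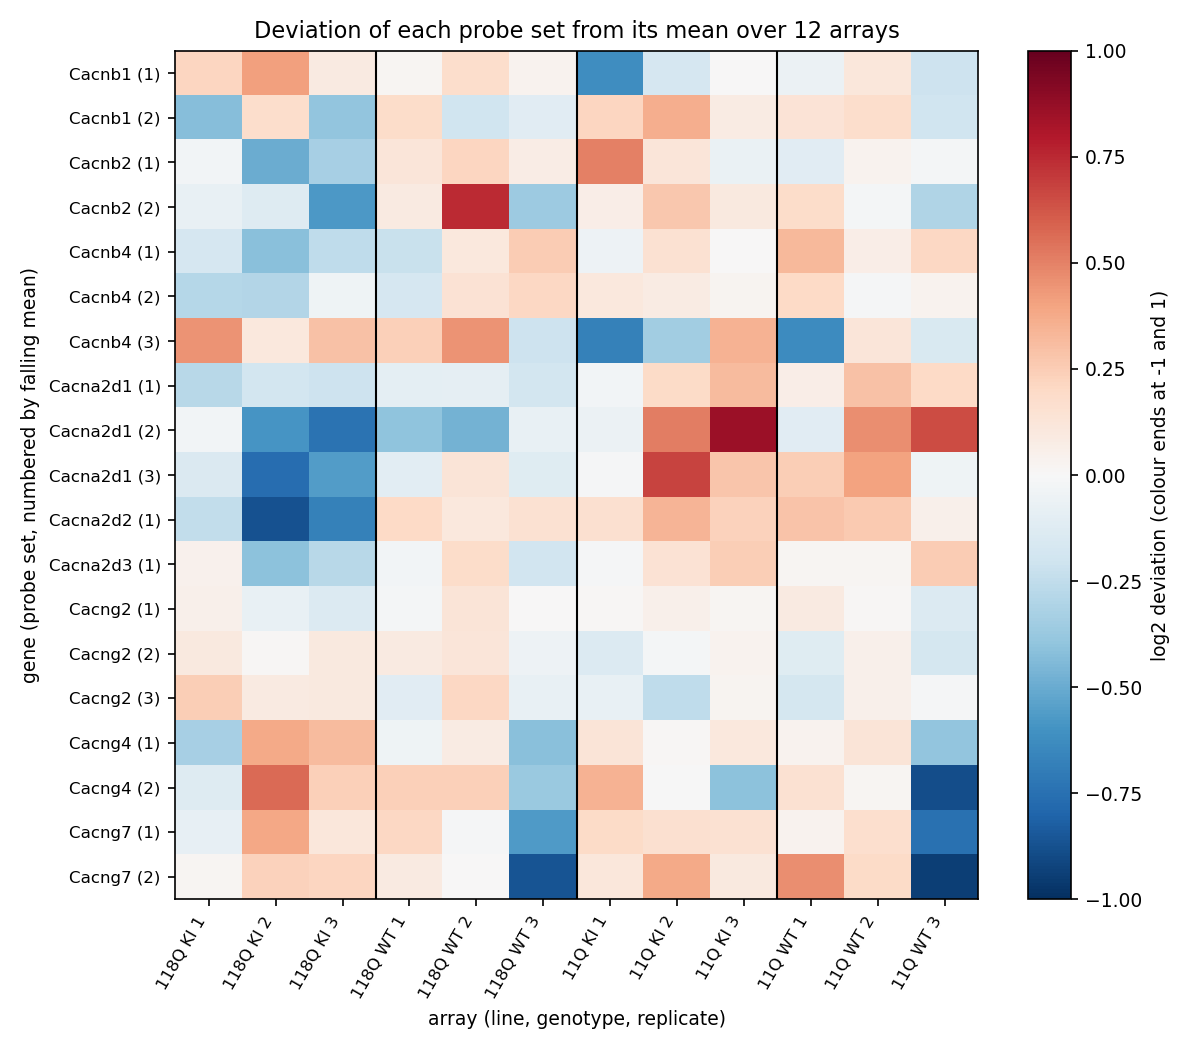
Deviation of each of the 19 probe sets above the filter from its own mean over the 12 arrays, in log2 units by colour, with arrays as columns grouped as 118Q knockin, 118Q wild type, 11Q knockin and 11Q wild type. Probe sets of 1 gene stand together, and both Cacng7 rows are low in replicate 3 of each wild type group.

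In the 11Q line none of the 9 members was called (0% of all genes called; limma, unadjusted p below 0.05 for 4.23% of genes and for no member). Their differences ran from -0.21 for Cacnb1 to 0.35 for Cacng7, with a median of 0.04 beside -0.04 over all genes, and 6 of 9 were above 0, against 40.7% of genes. No member had separate groups of arrays, against 10.4% of genes.

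The difference between both knockin effects, 118Q minus 11Q, asked whether knockins differed from their littermates alike in both lines. It was -0.80 ± 0.20 for Cacna2d2, with a 95% interval of -1.24 to -0.36 (limma, unadjusted p = 0.00171, adjusted p = 0.346), and -0.64 ± 0.21 for Cacnb2 (limma, SE, adjusted p = 0.347). For Cacnb2 it combined -0.42 in the 118Q line with 0.22 in the 11Q line, and for Cacnb1 0.16 with -0.21. Such a value does not say which allele moved a gene more, and allele length cannot be told apart from line. No member was called, and neither was any gene (0%). At an unadjusted p below 0.05, Cacna2d2 and Cacnb2 passed, both lower, against 2.9% of genes lower and 11% in either direction. Differences of effects were below 0 for 7 of 9 members, with a median of -0.13, beside 37.7% of genes and a median of 0.08. For Cacnb1 the difference of effects was 0.37 ± 0.22, and the 6 remaining members lay between -0.23 and 0.09.

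Knockins were also set against each other, a comparison of the lines as well as of the alleles that shares its arrays with the effects above. Cacna2d2 fell by 0.84 ± 0.14 in 118Q knockins relative to 11Q knockins (limma, SE, adjusted p = 0.00723), and Cacna2d1 fell by 0.38 ± 0.11 (adjusted p = 0.0374). Cacnb1 rose by 0.50 ± 0.15 (limma, adjusted p = 0.0497). These 3 of 9 members compare with 13.7% of all genes called, 10.1% higher and 3.6% lower. In all 3, and for Cacnb4 at -0.31 ± 0.13 (limma, adjusted p = 0.131), the knockin groups did not overlap, against 38.1% of genes. Differences were below 0 for 7 members, against 37.5% of genes.

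Other values stand beside that comparison. The Cacna2d1 difference between the wild type groups, -0.31, was in the same direction. Dimmer Cacna2d1 probe sets gave -0.80 and -0.89 between knockins (limma, every probe set tested on its own, adjusted p = 0.0196 and 0.0402). The other Cacnb1 probe set above the filter gave -0.43 where the brightest gave 0.50. Cacnb2 was at -0.47 ± 0.15 (limma, adjusted p = 0.0560) and Cacna2d3 at -0.34 ± 0.14 (limma, adjusted p = 0.126), while Cacng2, Cacng4 and Cacng7 lay between -0.08 and 0.04. With the 18S signal as a covariate none of the 9 was called, and 0 of all 12672 genes, against 1732 without it. That signal did not overlap between the knockin groups either, at 8.56 to 9.23 in 118Q and 10.10 to 10.36 in 11Q knockins. This fit therefore cannot tell its part from that of the groups. Leaving out single arrays left 1 to 3 members called, beside 319 to 2274 of all genes. Cacna2d2 passed in all 6 of those fits, with an adjusted p of at most 0.0371 (limma). Cacnb1 and Cacna2d1 each passed in 1 of the 6, and their adjusted p reached 0.171 without 11Q knockin replicate 1 and 0.132 without 11Q knockin replicate 3 (limma). Between wild types, no member was called, and neither was any gene (0%). Cacna2d1 alone passed an unadjusted p below 0.05, against 2.98% of genes, and Cacna2d1 and Cacnb2 had separate groups, against 6.44%.

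Pore-forming subunits of calcium channels were measured beside the auxiliary ones. Of 10 listed, 7 were above the filter and none was called in the 118Q effect. Of the 7, 5 were below 0, against 40% of all genes, and the median was -0.14, beside 0.06 over all genes. Cacna1g, a low-voltage-activated T-type pore, had the smallest p, with a difference of -0.58 ± 0.16 (limma, SE, adjusted p = 0.107), followed by Cacna1a and by Cacna1e, an R-type pore, at -0.34 ± 0.24 (limma, adjusted p = 0.479). The 3 other auxiliary subunits above the filter, of 6 listed, were Cacng5 at -0.15, Cacng8 at 0.14 and Cacng3 at -0.04, none called. Of 18 channel regulators, 12 were above the filter with a median of -0.05, and 1 was called. That gene was Fgf14, an intracellular factor that binds sodium channels and also affects calcium channels, which fell by 1.64 ± 0.20 in 118Q knockins (limma, SE, adjusted p = 0.00521). Its call ended with the 18S covariate, at -0.92 (limma, adjusted p = 0.652), with only the groups compared (limma, adjusted p = 0.139) and without replicate 3 of both wild type groups (limma, adjusted p = 0.0757). Stac, an adaptor protein of calcium channels, at -0.47 ± 0.19, and Ppp3ca, a catalytic subunit of the phosphatase calcineurin, at -0.29 ± 0.11, were not called.

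Likeness over the 12 arrays, as a description of samples that share groups and RNA measures, differed between members. Cacng7 was most like Acap3 (Pearson r = 0.969), Atxn7l3 (0.969) and Boc (0.968), and Cacnb4 was most like Glrb, a glycine receptor subunit (0.975), Acap2 (0.966) and Zbtb18 (0.958). Cacna2d1 was most like Dlst (0.914), Cacna1b, the N-type pore (0.891), and Kpna6 (0.883). Between members, Cacng4 and Cacng7 correlated at 0.845 and Cacna2d2 and Cacnb4 at 0.755, whereas Cacnb1 and Cacnb2 stood at -0.715. The closest genes were Ermap, Gtf3c5 and Sec14l2 for Cacnb1, Sdcbp, Adgrl2 and Rnf145 for Cacnb2, and Slc25a5, Ublcp1 and Fgf13 for Cacna2d3. For Cacng2 they were Nrsn2, Slc41a3 and 3000002C10Rik, and for Cacng4 Ankrd40, Senp3 and Zfp219, all with r between 0.855 and 0.946.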

How the data were processed

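The labels list 12 arrays of total cerebellar RNA, with 3 mice in each group. The deposited values are log2 levels of probe sets that the authors computed with RMA, per the submitters' processing notes, with no version or settings given in the sources used here. The base of the logarithm is not stated and was read as log2 from the range of the values. They were used as deposited. The dimmest 40% of the 45101 probe sets by mean level (at most 1.58) were removed, which left 27060. Probe sets with 1 symbol in the array annotation were named, 34958 in all, against 932 with several and 9211 without, and the one with the highest mean stood for each of 12672 genes.

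All arrays entered 1 limma model with a mean per group (limma 3.58.1 under R 4.3.3), which left 8 residual degrees of freedom. Each p is two-sided, adjusted by Benjamini-Hochberg over all genes, and a gene was called below 0.05. Errors are SE for differences and SD for group means, and the number of arrays, 3 a group, limits precision: the median SE was 0.139 for a difference between groups and 0.197 for a difference of effects. Nothing states that replicates came from separate litters, so the p-values measure only the spread between these samples. Alternatives changed the filter, the probe set rule, the normalization, the variance model, the groups in the fit, a replicate block, an 18S covariate, the trend with gene span and the arrays left out. The 18S signal did not overlap between 118Q knockins and their littermates, so fits with that covariate cannot tell its part from that of the genotype. Errors can also widen in such a fit: the SE of Atp2a2 in the 118Q effect was 0.12 without the covariate and 0.20 with it. Scripts were tested on simulated data.

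Named were all members, Cacna1a, the 3 genes most correlated with each member over the 12 arrays, and up to 3 genes of each list with the smallest p in the 118Q effect. The members and lists were chosen with earlier results of these data known. Coordinates and promoter sequences are from RefSeq on GRCm38.p6.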

Additional observations from a re-analysis of the deposited data

How the results depend on the processing

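The count of members called in the 118Q effect was 0 as reported and became 1, Cacna2d2, with an intensity trend in the variance, with the lowest 60% of probe sets removed, with probe sets tested one by one and with quantile normalization. Leaving out single arrays gave 0 to 1 called, the 1 without 118Q knockin replicate 1, and 0 to 1 in the difference of effects, again without that array (Cacna2d2 -0.98, limma adjusted p = 0.0495). Over all genes, 24 calls in the 118Q effect became 707 without that array, 5 and 4 without 118Q knockin replicates 2 and 3, 608 of 27060 with probe sets one by one, 200 with the trend, 150 with the stricter filter, 43 with quantile normalization, 10 with centred arrays, 5 with the gene span trend removed, and 0 with the 18S covariate or only the groups compared. Cacna2d2 in the 118Q effect ranged from -0.93 to -0.62 over the fits without 1 array (limma adjusted p = 0.0033 to 0.228). The members' median in the 118Q effect was 0.0035 with the gene span trend removed. Between knockins, 3 called members became 0 with the 18S covariate, 1 with the gene span trend removed and 1 with only the groups compared. Calls over all genes, 1732 in the main fit, became 0, 823 of 12612 and 1555 in the same order. Fits without single arrays called 1 to 3 members, beside 319 to 2274 genes. The members' median of -0.31 became -0.13 with the span trend removed, -0.0326 with each gene's probe sets averaged and -0.36 to -0.24 without single arrays. Between wild types the median ran from -0.12 to 0.0646 without single arrays.

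Signs turned for small differences. With the 18S covariate the 118Q effect was -0.68 for Cacng4 and -0.56 for Cacng7, the 11Q effect of Cacng4 was -0.0027, the difference of effects was -0.67 for Cacng4 and 0.0583 for Cacnb4, the knockins differed by -1.15 for Cacng4 and 0.0269 for Cacnb4, and the wild types by 0.14 for Cacna2d2 and -0.32 for Cacng7. With the gene span trend removed, the 118Q effect was 0.0636 for Cacna2d1 and 0.0035 for Cacna2d3, and Cacna2d1 was at 0.0297 in the 11Q effect and at 0.0339 in the difference of effects. With the mean of probe sets, the 118Q effect was -0.0046 for Cacnb1 and 0.0220 for Cacng2, the 11Q effect 0.0618 for Cacna2d1, the difference of effects 0.0144 for Cacng2 and 0.0187 for Cacng7, the knockins 0.0924 for Cacng2, and the wild types 0.0712 for Cacnb4, 0.11 for Cacng4 and -0.0513 for Cacng7. Quantile normalization gave -0.0032 for Cacng4 between knockins and 0.0019 for Cacna2d1 in the 11Q effect, which centred arrays put at 0.0026. Without replicate 3 of both wild type groups, chosen after seeing the data, Cacna2d2 and Cacng2 were at -0.0270 and -0.0209 in the 11Q effect and Cacna2d3 at 0.0617 between wild types. Without single arrays, Cacng4 and Cacng7 ran from -0.0912 to 0.26 and from -0.15 to 0.0840 between knockins, from -0.21 to 0.10 and -0.22 to 0.28 between wild types, and from -0.0608 to 0.31 and -0.31 to 0.20 in the difference of effects. Likewise Cacng2 ran from -0.0118 to 0.10 between wild types and Cacna2d1 from -0.17 to 0.0062 in the difference of effects. In the 11Q effect Cacna2d1 ran from -0.11 to 0.0681, Cacna2d2 from -0.0270 to 0.0887, Cacna2d3 from -0.0326 to 0.11 and Cacng2 from -0.0209 to 0.0913. The cause of these changes was not tested. With the replicate number within each line as a block, 0 members were called in the 118Q effect, as without it, and all-gene calls were 5. With the number as a block across lines, 3 members were called between knockins, as without it, beside 1801 of 12672 genes. Within each line, same-numbered knockin and wild type arrays did not deviate together. Their correlations ran from -0.11 to -0.03 in the 118Q line and from -0.17 to 0.19 in the 11Q line, so the numbers were not taken as pairs. The check did not cross the lines. Across them, replicate 3 of both wild type groups was below the other 10 arrays for 9.82% of genes. Dim probe sets, 6 of the 25, limit what can be said of Cacna2d2 transcripts outside its brightest probe set.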

Other observations

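Partners of the channels at release sites and of the gamma subunits at synapses were described beside the members. Of 20 listed release site genes, 18 were above the filter and none was called in the 118Q effect by limma. At an unadjusted p below 0.05 (limma), 4 were lower and none higher, against 6.7% of all genes lower and 18.7% in either direction. Of the 18, 14 were below 0, with a median of -0.07, beside 40% of all genes below 0 and a median of 0.06. Pclo, a scaffold of the presynaptic active zone, had a difference of -0.69 ± 0.20 (limma, SE, adjusted p = 0.110), and Nrxn3, a presynaptic adhesion protein, and Snap25, a membrane fusion protein, were at -0.27 and -0.26.

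Of 20 AMPA receptor subunits and partners, 19 were above the filter and none was called. At an unadjusted p below 0.05 (limma), 5 were lower and 1 higher, against 6.7% of all genes lower and 18.7% in either direction. The median of the 19 was 0.02, beside 0.06 over all genes. Shisa6, an auxiliary protein of AMPA receptors, had a difference of -1.36 ± 0.29 between 118Q knockin and 118Q wild type cerebellum (limma, SE, adjusted p = 0.0606). Nptx1, a pentraxin that gathers AMPA receptors, was at -0.53 and Dlg2, a postsynaptic scaffold protein, at -0.35 (limma adjusted p = 0.121 and 0.120).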
